A study of Mus musculus with 60 samples.

Results

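The promoters of Nfia, E130114P18Rik, Fhod3 and Gm9955 carried an H3K27me3 peak in more libraries of cells with catalytically inactive TET1 (MUT) than of wild-type (WT) cells. The 4 genes were selected on these measured values, from 21938 protein-coding genes, as promoters called in more MUT than WT libraries over all 5 time points, and the MUT and WT values are therefore given as a description without a test. A promoter was the stretch within 1.5 kb of a start site of a protein-coding transcript, and it was called in a library when a peak overlapped it. The 4 genes lie at 2 loci, because Nfia and E130114P18Rik share a peak and so do Fhod3 and Gm9955, so the values of the partners in a pair are the same calls and not separate evidence.

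The study asked how TET1 and its catalytic activity bear on the mark as mouse embryonic stem cells turn into anterior neural progenitors. All lines are labelled as stem cells of the mixed B6129S6F1 background with the Tet1<tm1Koh> stock as source, WT lines included. KO lines lack Tet1, and MUT lines are clones from 1 WT line in which CRISPR with homology directed repair changed the active site of Tet1. Cells were taken at day 0 in serum, at days 2, 3 and 5 in neural medium with bFGF until day 3, and at day 5 after 5 µM of the Wnt pathway inhibitor XAV939 from day 2 (day 5 XAV). WT70 and WT72 were used throughout, CM40 and CM59 (MUT) and KO15 and KO25 (KO) at days 0 and 2, and CM59 and CM69, KO1 and KO15 later. Each genotype thus had 10 libraries, and the change of line after day 2 cannot be told apart from the change of stage for the second MUT and KO lines. The free text of the KO25 samples at days 0 and 2 names WT70, against their titles, cell line and genotype fields, which were followed, and their peak numbers (2874 and 2076) differ from those of WT70 (1484 and 2185).

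H3K27me3 is laid down by Polycomb repressive complex 2 and marks genes that are kept silent, most often at CpG-rich promoters of developmental regulators. In CUT&RUN an antibody to the mark directs a nuclease that releases the chromatin around it. Nfia encodes a nuclear factor I transcription factor that acts in the switch of neural progenitors to making glia, and Fhod3 encodes a formin that organises actin in the sarcomeres of heart muscle. E130114P18Rik and Gm9955 are predicted protein-coding genes.

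At the Nfia locus the mark lay over a CpG-rich stretch beside both start sites. Nfia (ENSMUSG00000028565.18) runs from base 97772734 to 98118874 of chromosome 4 on the plus strand (GRCm38.p6, GENCODE M21), and E130114P18Rik (ENSMUSG00000048747.14) from 97568133 to 97778078 on the minus strand. Distances are given from the start sites 97777803 of Nfia and 97778048 of E130114P18Rik, each under the peak in 17 of the 18 called libraries and 245 bp apart, so that the 2 transcription units overlap at their 5′ ends. Of the 7 annotated protein-coding start sites of Nfia, the farthest downstream (97880119) was called in 0 libraries the farthest upstream (97772734) in 8 and the other 5, from 97777608 to 97777834, in 18. The start sites that RefSeq gives for Nfia and E130114P18Rik lie 195860 bp and 193457 bp away from these and were called in 0 of 30 libraries, so the calls describe these start sites and not every promoter of the genes. The stretch covered in all 18 called libraries measured 1831 bp, from 312 to 2142 bp downstream of the Nfia start, and was intronic over its whole length. Its most CpG-dense 300 bases are shown because every called peak covered them, and 300 bases of a neighbouring peak that every library had are shown for contrast, both read from GRCm38.p6 on the plus strand with each CpG in capitals. The first (chr4:97778207-97778506) holds 45 CpG at a GC content of 77.7%, and the second (chr4:97754420-97754719), in an exon of the noncoding transcript Gm12676, holds 12 at 56.3%.
Nfia promoter peak: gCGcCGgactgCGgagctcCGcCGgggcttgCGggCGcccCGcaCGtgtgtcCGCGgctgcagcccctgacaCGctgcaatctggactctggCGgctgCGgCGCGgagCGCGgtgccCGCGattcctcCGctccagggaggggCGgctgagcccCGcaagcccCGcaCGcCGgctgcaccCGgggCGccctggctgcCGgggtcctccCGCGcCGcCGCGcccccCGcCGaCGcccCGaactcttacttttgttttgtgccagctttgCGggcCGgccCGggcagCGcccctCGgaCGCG
Upstream peak in all libraries: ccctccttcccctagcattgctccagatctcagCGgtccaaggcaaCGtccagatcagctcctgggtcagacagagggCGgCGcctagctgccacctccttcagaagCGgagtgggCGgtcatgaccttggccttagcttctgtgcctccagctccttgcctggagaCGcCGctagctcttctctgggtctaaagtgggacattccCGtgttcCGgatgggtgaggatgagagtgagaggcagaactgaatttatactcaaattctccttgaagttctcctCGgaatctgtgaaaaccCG

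**Figure D1:**
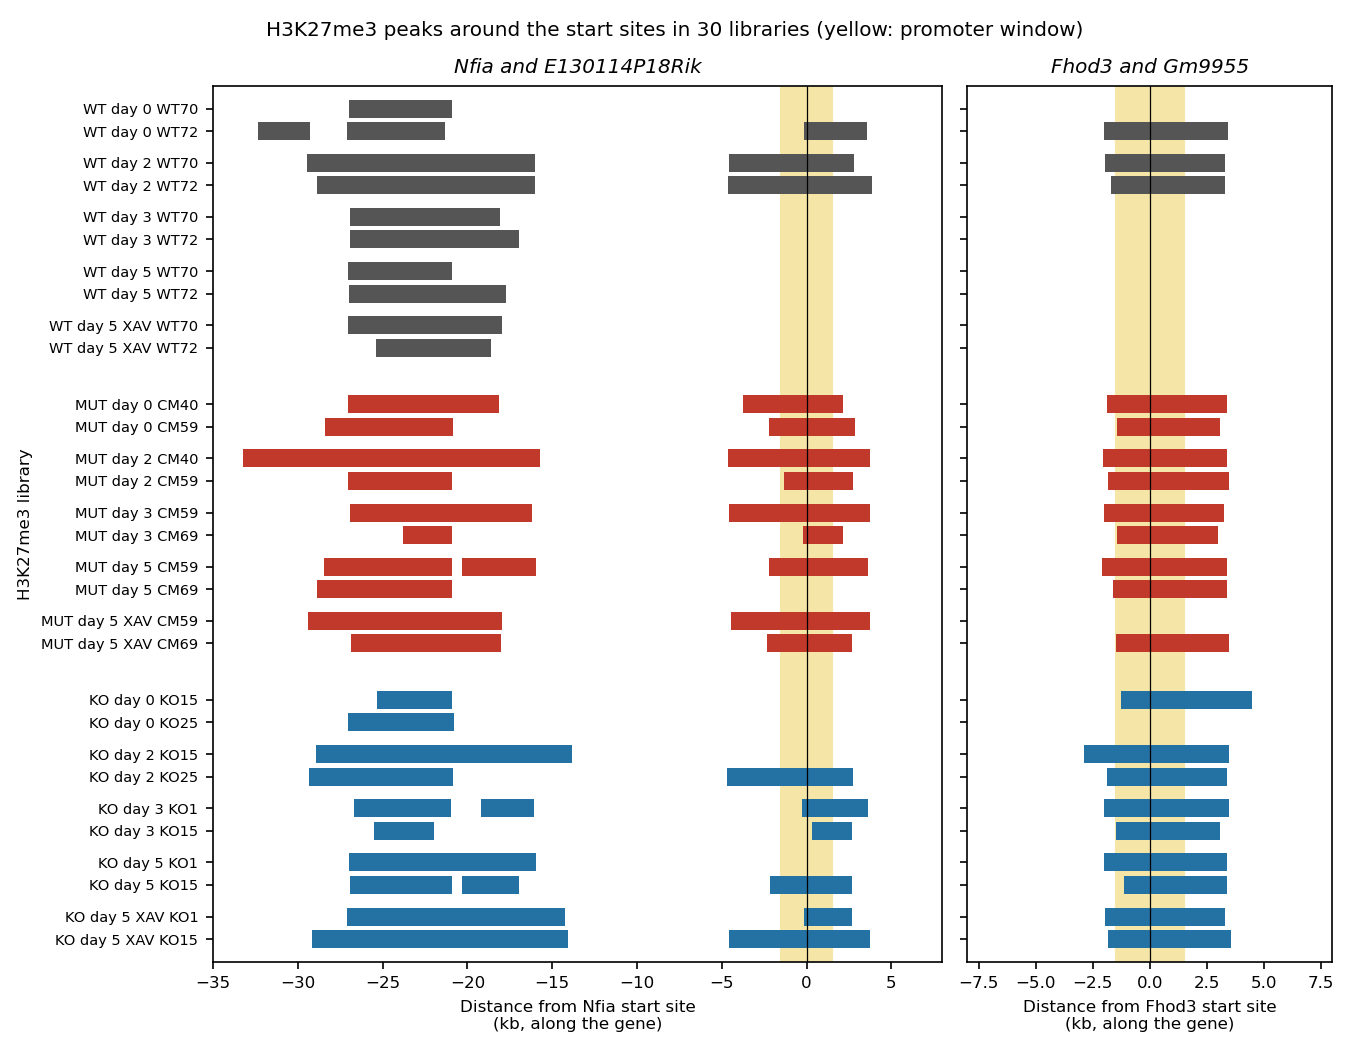
H3K27me3 peaks (bars) in each of the 30 libraries (rows, WT grey, MUT red, KO blue) by distance in kb from the start site of Nfia and of Fhod3 (horizontal axes, along the gene), with the promoter window of 1.5 kb to either side in yellow. WT bars at the Nfia and Fhod3 start sites end with day 2, and the peak upstream of Nfia is present in every row.

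At the promoter of Nfia and E130114P18Rik, 9 MUT, 3 WT and 6 KO libraries were called. In WT the peak was called in WT72 at day 0 and in both lines at day 2, and in 0 of 6 libraries after day 2. In MUT it was called in every library except CM69 at day 5, which gave 5 of 6 after day 2. KO libraries were called in KO25 at day 2, both lines at day 3, KO15 at day 5 and both lines with XAV, and in 0 of 2 at day 0. MUT thus exceeded WT in called libraries at every time point but day 2, where both had 2. In a bulk sample, fewer cells that carry the mark and less mark per cell cannot be told apart.

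The peak ended at a few recurring positions. Its upstream edge lay 4.46 to 4.7 kb before the Nfia start at 97777803 in 7 of the 18 called libraries (2 WT, 3 MUT, 2 KO), 2.17 to 2.31 kb upstream in 4 (3 MUT, 1 KO) and within 0.5 kb of the start in 5 (1 WT, 1 MUT, 3 KO). Its downstream edge lay 2.14 to 3.85 kb after that start. Both edges fell within the annotated Nfia gene in every called library, because the farthest upstream start of the gene lies beyond them. Widths were 3.72, 7.4 and 8.46 kb in the WT libraries, 2.37 to 8.35 kb with a median of 5.85 kb in MUT and 2.35 to 8.33 kb with a median of 4.36 kb in KO. Called widths of the 3 genotypes overlapped. Within MUT the lines differed at the same day: at day 3 the peak measured 8.32 kb in CM59 and 2.37 kb in CM69. In KO15 at day 3 it began 0.312 kb downstream of the start and was called through its overlap with the window.

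Ranked by total signal within each library, where 0% is the strongest peak and 100% the weakest called, the Nfia peak stood at 28.2% and 25.1% in WT70 and WT72 at day 2 and at 75.7% in WT72 at day 0. In MUT it ranked at 39% and 70.4% at day 0 (CM40, CM59), 29.7% and 72.7% at day 2, 36.9% in CM59 and 91.9% in CM69 at day 3, 32.7% in CM59 at day 5, and 68.9% and 52.9% with XAV (CM59, CM69). At day 3 the peak thus stood in the upper part of the list by total signal in CM59 and near the bottom of it in CM69. By highest point these day 3 peaks ranked at 62.5% in CM59 and 69.8% in CM69, and by signal per base at 75.8% and 61.5%. KO ranks ran from 25.2% (KO15 with XAV) to 99% (KO1 with XAV). Where no WT library was called, 4 of the 5 MUT peaks had a rank no greater than the number of peaks in the smaller WT library of that time point, against 1 of the 5 KO peaks. Any peak of CM59 at day 5 XAV would meet this, since it held 704 peaks and the smaller WT library 1407. Each of these KO libraries held more peaks than the smaller WT library, so the MUT and KO counts are not alike. The calls also chose the genes, so the counts are a description. In the plot of ranks, the MUT points after day 2 spread over most of the scale.

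**Figure D2:**
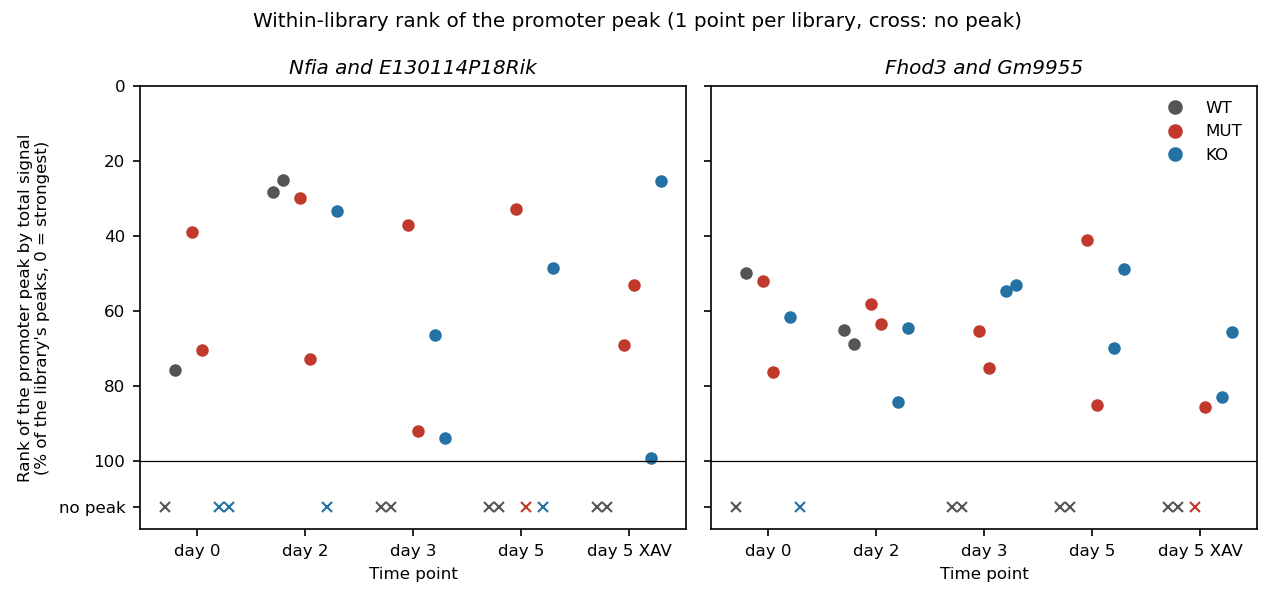
Rank of the promoter peak by total signal, as a percent of all peaks of its library (vertical axis, strongest at the top), by time point, with 1 point per library (WT grey, MUT red, KO blue) and a cross where the promoter had no peak. After day 2 all WT symbols are crosses at both loci, and the Nfia points range from 25.1% to 99%.

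The neighbouring peak upstream of Nfia did not choose the genes and is described beside the promoter peak. Its calls could not differ between genotypes, since every library had it, so only its width and rank are compared. It lies within E130114P18Rik, in the region 97744572 to 97763979 of chromosome 4, and was called in all 30 libraries, ending 13.8 to 22 kb upstream of the Nfia start. The 1870 bp covered in every library had a GC content of 46.8% and 28 CpG. Its median width was 8.94 kb in WT, 8.4 kb in MUT and 7.34 kb in KO, with ranges of 5.79 to 13.4, 2.92 to 17.5 and 3.57 to 15.1 kb that overlapped. Width and rank are those of the strongest peak in the region. The region held 2 peaks in WT72 at day 0, KO1 at day 3, and CM59 and KO15 at day 5. There both peaks together covered 8807, 8873, 11916 and 9386 bp, more than the width used. Its median rank was 21.6% in WT, 24.4% in MUT and 27% in KO, also with overlapping ranges. In the WT libraries without a promoter peak the nearest peak lay 17 to 20.9 kb from the Nfia start.

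Of the nuclear factor I family, Nfix was called in all 30 libraries, Nfib in 5 MUT, 3 WT and 4 KO libraries and Nfic in 2 MUT, 3 WT and 6 KO libraries. The family thus had 2 genes with more MUT than WT libraries, 1 with fewer and 1 with as many. Over all 21938 genes, 2899 promoters were called in at least 2 MUT or WT libraries. Of these, 1149 (39.6%) had more MUT libraries and 475 fewer. Among 14 gliogenic genes, 5 were called in at least 2 MUT or WT libraries, of which 2 had more MUT libraries (Hes5, a Notch target, in 6 MUT and 4 WT libraries, and Olig2, a bHLH factor of oligodendrocyte precursors, in 10 and 9), 1 had fewer (Sox10, of the same lineage, in 7 and 9) and 2 as many. The other promoters with the most similar set of called libraries were Adcy1, an adenylyl cyclase, Fgf16, a fibroblast growth factor, and Gxylt2, a xylosyltransferase, each at a Jaccard index of 0.8 over the 30 libraries among 2398 promoters called in at least 5.

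At Fhod3 and Gm9955 the mark formed an isolated peak of nearly constant width. Fhod3 (ENSMUSG00000034295.10) runs from base 24708623 to 25133501 of chromosome 18 on the plus strand with its protein-coding start at 24709445, and Gm9955 (ENSMUSG00000054745.1), 309 bp long, from 24709040 to 24709348 on the minus strand, its start 97 bp from that of Fhod3. The region covered by all peaks, from 24706548 to 24713921, was exonic over 15.6%, intronic over 56.3% and outside genes over 28.1% of its length. No other peak lay within 30 kb of the start in any library.

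The promoter of Fhod3 and Gm9955 was called in 9 MUT, 3 WT and 9 KO libraries. WT calls were the same 3 as at Nfia, namely WT72 at day 0 and both lines at day 2, with 0 of 6 after day 2. MUT lacked the call only in CM59 at day 5 XAV, the library with the fewest peaks, and had 5 of 6 after day 2. KO lacked it only in KO25 at day 0 and had 6 of 6 after day 2. MUT and KO were therefore equal here, while at Nfia MUT had 3 more libraries than KO.

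Both edges of the Fhod3 peak were steady. It ended 1.12 to 2.9 kb upstream and 3.01 to 4.48 kb downstream of the Fhod3 start in the 21 called libraries, and 4138 bp were covered in all of them. Widths were 4.98 to 5.45 kb in WT, 4.47 to 5.45 kb in MUT and 4.53 to 6.39 kb in KO, with medians of 5.26, 5.28 and 5.38 kb. A called peak thus had about the same extent in every genotype and at every stage.

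Its rank was 49.8% in WT72 at day 0 and 65% and 68.6% in WT at day 2. In MUT it was 52% and 76.2% at day 0, 58% and 63.4% at day 2, 65.2% and 75% at day 3, 41.1% in CM59 and 85% in CM69 at day 5, and 85.6% in CM69 with XAV. KO ranks ran from 48.8% to 84.1%. The ranks of the genotypes overlapped, and ranked by its highest point the peak stood lower, at a median of 88.7% in MUT and in KO. Where no WT library was called, 2 of 5 MUT peaks and 0 of 6 KO peaks ranked within the number of peaks of the smaller WT library. Any peak of CM69 at day 5 would do so, since it held 1191 peaks and the smaller WT library 1270. Each of these KO libraries held more peaks than the smaller WT library. These counts are again a description. In the WT libraries without the call the nearest peak was 52.8 to 1668 kb away.

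Formins build straight actin filaments, and of 13 formin genes 9 were called in no library, against 18359 of all 21938 genes. Fmnl1, a formin of blood cells, was called in 9 MUT, 9 WT and 10 KO libraries, Daam2 in 1 MUT and 1 WT library and Inf2 in 1 MUT library. Fhod3 was the only formin of the list with more MUT than WT libraries among the 3 called in at least 2 of them. Over all 2899 such promoters the share with more MUT libraries was 39.6%. The promoters most like that of Fhod3 in their called libraries were Ndnf, a secreted factor of neurons (Jaccard index 0.875), Abtb2 and Frrs1l, an auxiliary protein of AMPA receptors (0.87 each). These had 5, 5 and 4 WT libraries.

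Set against all promoters, the differences lay at the upper end. Of 2899 promoters called in at least 2 of the 20 MUT and WT libraries, 1149 (39.6%) were called in more MUT libraries, 475 in fewer, and the median difference was 0. Without WT70 the balance turned to 739 more and 1110 fewer, and without CM40 it was 1047 more and 935 fewer. A difference of 6 libraries, the highest found, occurred at 4 promoters, which are Nfia, E130114P18Rik, Fhod3 and Gm9955. A difference of at least 5 occurred at 10 promoters (0.345%), and among those at 5 were Cdkn2b, Inhba and Pfkfb3 (8 MUT and 3 WT), Cd248 and Gm36079 (7 and 2). These also meet the rule, as do all 1149, and lie outside the members. At the threshold of the rule itself, 559 promoters had a difference of 1 and 1275 had none. In KO, 1584 of 2860 promoters (55.4%) were called in more KO than WT libraries, and 56 (1.96%) in at least 6 more, the difference at Fhod3 and Gm9955, while at Nfia and E130114P18Rik it was 3. The MUT and KO differences share the WT libraries.

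**Figure D3:**
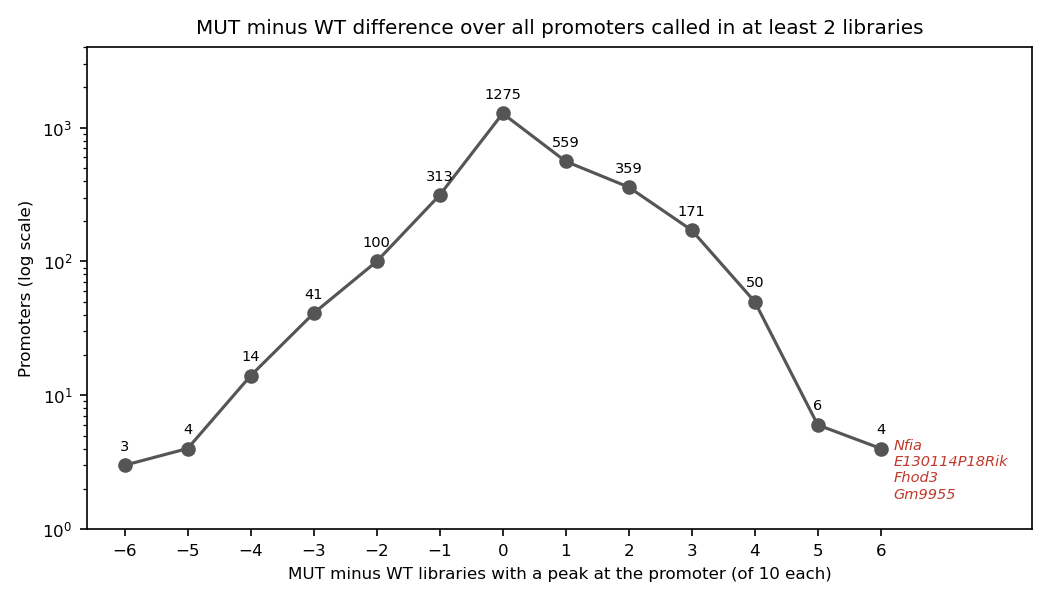
Number of promoters (vertical axis, log scale) at each difference between MUT and WT in libraries with a peak, of 10 each (horizontal axis), for the 2899 promoters called in at least 2 of them, with the genes described here named. The 4 promoters at 6 and the 6 at 5 form the upper end of a distribution with its highest count, 1275, at 0.

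By time point, both MUT lines and neither WT line were called at Nfia and E130114P18Rik at days 3 and 5 XAV, and at Fhod3 and Gm9955 at days 3 and 5. Over all promoters this pattern was found at 7 of 2899 (0.241%) on day 0, 11 (0.379%) on day 2, 164 (5.66%) on day 3, 83 (2.86%) on day 5 without XAV and 9 (0.31%) with it. It was most frequent at day 3, when WT libraries held 969 and 1135 peaks and MUT libraries 1631 and 1452.

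The number of peaks also differed between libraries. In WT the called libraries at both loci were those with the most peaks (1856, 2185 and 3450), and the others held 969 to 1717. The uncalled MUT library held 1191 peaks at Nfia and 704 at Fhod3. At Nfia CM59 at day 5 XAV, with 704 peaks, was called, and KO25 at day 0, with 2874, was called at neither locus. Libraries held 969 to 3450 peaks in WT (median 1446), 704 to 3466 in MUT (median 1680) and 1317 to 2874 in KO (median 1994), and MUT exceeded WT in both lines at day 3. Keeping in each library only its strongest peaks by total signal, as many as the smallest of the 6 libraries of a time point held, left 7 MUT, 2 WT and 2 KO libraries called at Nfia and E130114P18Rik, and 5, 1 and 2 at Fhod3 and Gm9955. After day 2 these were 3 MUT and 0 WT libraries at Nfia and 2 and 0 at Fhod3. With 704 peaks in every library, 3 MUT and 2 WT libraries remained called at Nfia and none at Fhod3. Over all promoters the same step at each time point gave 577 promoters with more MUT libraries and 422 with fewer. When KO libraries did not enter the number kept, a setting chosen after seeing the data, 7 MUT and 2 WT libraries were called at Nfia, and 5 and 2 at Fhod3. The same calls chose the genes, so these remainders are a description and no independent support. The part of sequencing depth in these differences was not tested, since depth is unknown.

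**Figure D4:**
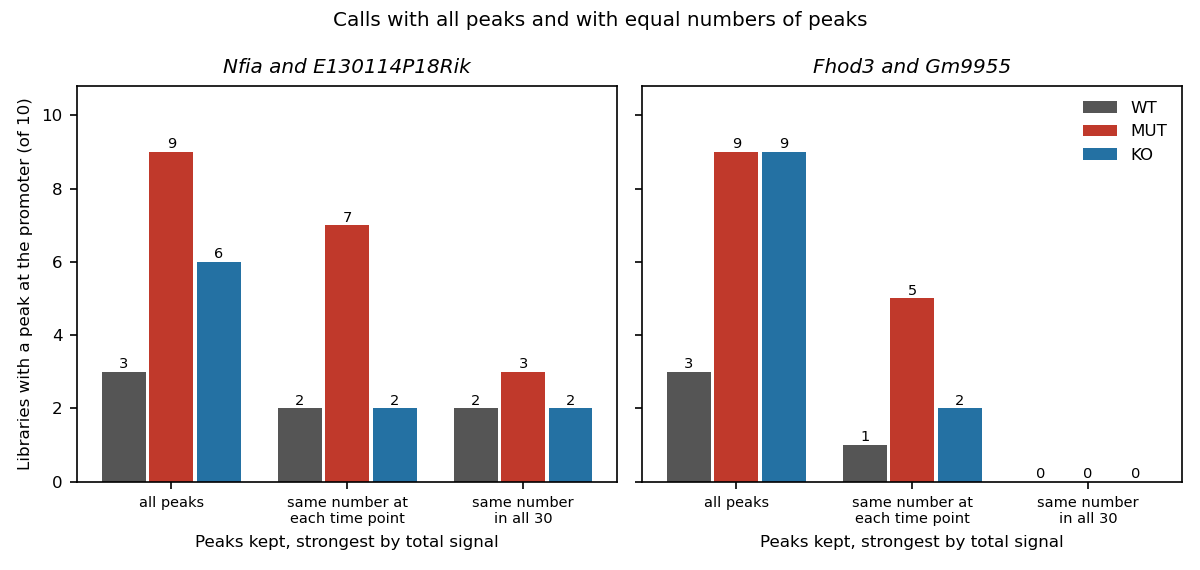
Libraries with a peak at the promoter (vertical axis, of 10 per genotype, WT grey, MUT red, KO blue) with all peaks, with the same number of strongest peaks at each time point, and with 704 in every library (horizontal axis). The MUT bars at Nfia fall from 9 to 7 and 3, and those at Fhod3 from 9 to 5 and 0.

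The rule summed over time points, so it did not use the contrasts of stage and of XAV. It did favour many MUT and few WT calls. The exact test holds the calls of each genotype fixed, which limited the p-values that these promoters could reach. Between days 3 and 5 and days 0 and 2 the share of called libraries differed by -16.7 points at Nfia and E130114P18Rik (3 of 4 to 0 of 4 in WT, 4 to 3 in MUT and 1 to 3 in KO; exact stratified p = 0.664, Benjamini-Hochberg adjusted p = 1). It differed by -16.7 points at Fhod3 and Gm9955 (3 to 0 in WT, 4 to 4 in MUT and 3 to 4 in KO; exact p = 0.571, adjusted p = 1). None of the 4 passed. Fhod3 and Gm9955 could not pass, because with their calls per genotype, which the test holds fixed, no outcome gives a p under 0.05. Over all 3103 promoters tested 7 (0.226%) passed as higher and 89 (2.87%) as lower at days 3 and 5, with a median difference of -8.33 points. When every library was held to 704 peaks, 43 passed, of which 22 were higher, and with the same number at each time point 139 passed, of which 6 were higher. With the same number at each time point the difference was -41.7 points at Nfia (exact p = 0.0459, adjusted p = 0.187) and -33.3 points at Fhod3 (exact p = 0.163, adjusted p = 0.462). With all peaks, leaving out a line gave -33.3 to -8.33 points at Nfia and -25 to -8.33 points at Fhod3. In WT the calls at Nfia and Fhod3 went from 3 to 0, and whether genotypes differ in this was not tested, because the rule used those values.

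With XAV at day 5, Nfia and E130114P18Rik were called in 4 of 6 libraries against 2 of 6 without it (exact p = 0.5), and Fhod3 and Gm9955 in 3 against 4 (exact p = 1). The test holds the calls of each genotype fixed. With these calls no outcome could give a p below 0.5 at Nfia and E130114P18Rik. At Fhod3 and Gm9955 every outcome gives the same p. These p-values therefore say nothing about XAV at the 4 promoters. The smallest p the design allows at any promoter is 0.00926, so an adjusted call over 2349 promoters would need many of them at that p. By the exact stratified test 0 (0%) passed and 9 had an unadjusted p under 0.05. Pairing each line with itself gave an exact p of 0.5 for Nfia and of 1 for Fhod3, and 3 promoters with an unadjusted p under 0.05. A p that misses the threshold does not show that the treatment left a promoter as it was.

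The promoters held more CpG than most promoters with a peak, a feature that the rule did not use. Within 1.5 kb of the start, Nfia held 228 CpG at a GC content of 60.1%, E130114P18Rik 229 at 59.8%, Fhod3 151 at 57.6% and Gm9955 147 at 57.2%. The median of 3183 promoters called in at least 2 of the 30 libraries was 114 CpG at 54.6%, with an interquartile range of 83 to 152, and that of 18359 promoters never called was 63 at 48.2%. Nfia stood at the 96.6th percentile of called promoters by CpG number and Fhod3 at the 74.9th, so that Fhod3 and Gm9955 lay just inside the interquartile range and the others above it.

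As a check of where the mark lies, 6 of 9 streak, mesoderm and endoderm regulators (T, Eomes, Sox17, Foxa2, Gata4 and Hand2) were called in all 30 libraries. Mixl1 was called in 6 WT, 7 MUT and 5 KO libraries, Mef2c in 3 of each and Twist1 in 3, 4 and 2. Of the pluripotency genes, Nanog and Zfp42 were called in none, Pou5f1 and Klf4 in none at day 0 and in both WT libraries at day 5, Esrrb in all 30 and Tfcp2l1 in 1 MUT and 2 KO libraries. Of 6 neural genes, Pax6 and Six3 were called in all 30 libraries, Sox1 in 9 WT, 10 MUT and 10 KO, Otx2 in 4, 3 and 5, Nes in 1, 3 and 4 and Sox2 in 2 KO libraries. Peaks do not measure expression, so the progenitor label was not tested by them.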

How the data were processed

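Peaks of H3K27me3 were taken from 30 CUT&RUN libraries of 60 samples, the other 30 being IgG controls used only in the authors' peak calling. Trimming (Trim Galore), alignment to GRCm38.p6 (Bowtie) and duplicate removal (Picard) were done by the authors, who then ran SEACR in stringent mode for every library against its IgG control (version not given in the sources used here). The deposited peak values are signal (fragment coverage, as a total over the peak and at its highest point), unscaled between libraries, so that they were used only as ranks within a library. Read depth per library is unknown, and no counting interval is given. Further region lists (the authors' own KO and WT comparison) were not used.

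Promoters were 1.5 kb to either side of start sites of protein-coding transcripts in GENCODE M21 (all transcripts for 85 genes without any), called at 1 bp of overlap. Overlapping peaks were joined across libraries to give regions. Shares of called libraries were compared by two-sided exact permutation within genotypes, with Benjamini-Hochberg adjustment over promoters called in at least 2 libraries of the contrast, a test first checked on simulated calls. Lines are the replicates, and libraries of 1 line at different days were treated as separate, so p-values measure the spread between these libraries. The same lines were sampled with and without XAV, which pairs these libraries, and differences between the 2 lines of a genotype at day 5 and day 5 XAV correlated at 0.103 (WT), -0.122 (MUT) and 0.187 (KO) over 2349 promoters. Members and gene lists were chosen with earlier results of these data known. Of 5 members 1 is not reported here, nor is its gene list. Named genes were the members, protein-coding genes with a promoter in the same merged region, 3 listed families, 3 lists of cell type markers, and for each locus the 3 promoters of highest Jaccard index; genes beside the members in difference were named after their values were seen. Alternatives were other windows, overlaps, start sites and ranks, equal peak numbers, and leaving out lines or time points. Python 3.11.15, NumPy 2.4.6, SciPy 1.17.1, pysam 0.24.0 and Matplotlib 3.10.9 were used.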

Additional observations from a re-analysis of the deposited data

How the results depend on the processing

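Alternatives for single genes were run for Nfia, E130114P18Rik, Fhod3 and Gm9955. None of these reversed its MUT or KO difference from WT, and leaving out a line gave differences of 5 to 7 libraries per 10 at Nfia and Fhod3 for MUT. With the same number of peaks at each time point the MUT difference was 4 at Fhod3 and Gm9955, and with the same number in all 30 libraries it was 1 at Nfia and E130114P18Rik and 0 at Fhod3 and Gm9955. The KO difference at Nfia was 0 in 3 of 17 alternatives. Wider and narrower windows, a longer overlap and start sites of all transcripts moved no count of promoters by over 1.5 times.

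The 1149 promoters with more MUT than WT libraries became 577 with equal numbers at each time point, 575 with equal numbers over MUT and WT alone, 361 with equal numbers in all 30, 739 without day 5, 1908 without the library of CM59 at day 5 XAV, and 739 (without WT70) to 1794 (without CM69) on leaving out a line. Fewer in MUT were 475 promoters, and 1110 without WT70, where the balance turned, 935 without CM40, 256 without CM59, 309 without day 5 XAV, 624 without day 5 and 422, 436 and 290 in the settings with equal numbers in the order given. Where groups held unequal numbers of libraries, shares of libraries were compared, which by itself leaves fewer ties. The 1584 with more KO than WT became 594 with equal numbers at each time point, 640 when CM59 at day 5 XAV did not set that number, 416 with equal numbers in all 30, and 1182 to 1871 without a line, beside 291 with fewer KO libraries (516, 545 and 340 with equal numbers, in that order, 616 without WT70, 506 without KO25 and 137 without day 2). The 96 promoters that differed between stages became 43 with equal numbers in all 30 (22 higher, against 7 of the 96) and 20 (without WT72) to 77 (without KO1) on leaving out a line, with 26 without WT70 and 38 to 43 without KO15, CM69, CM59, CM40 or KO25, since fewer libraries enter. For XAV the 9 unadjusted calls became 153 and 27 with equal numbers at each time point and in all 30, 88 and 25 without CM59 at day 5 XAV (with and without equal numbers), 18 without CM59 and 3 to 4 without any other line, and 3 with the replicate block, which changed no other call. Adjusted calls stayed at 0. The settings on CM59 at day 5 XAV and over MUT and WT alone were chosen after seeing the data.

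Median ranks moved beyond their spread for Fhod3 and Gm9955, from 65.2% to 88.7% by the highest point and 48.8% by width in MUT and from 64.4% to 88.7% by the highest point and 78.4% by signal per base in KO. The cause was not tested.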
